A study of Homo sapiens with 14 samples.

Results

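GATA3 binding was examined at 35 genes of the Hippo pathway and of its YAP target programme, in ChIP-seq peak lists from the breast cancer cell line MDA-MB-231, which lacks hormone receptors and HER2 (triple-negative). Peaks of 12 lists were merged wherever they overlapped by at least 1 bp, which gave 78999 regions, and a region belonged to a gene when it overlapped the gene span or the 50 kb on either side. By that rule 590 of the 78999 regions lay at these genes. The genes were 2 effectors (YAP1, WWTR1), 4 TEAD factors (TEAD1, TEAD2, TEAD3, TEAD4) and 7 genes of the kinase core (LATS1, LATS2, STK3, STK4, SAV1, MOB1A, MOB1B). A further 8 were upstream regulators and scaffolds (NF2, AMOT, AMOTL1, AMOTL2, WWC1, FRMD6, PTPN14, AJUBA), 3 were VGLL cofactors (VGLL1, VGLL3, VGLL4) and 11 were YAP targets (CCN1, CCN2, ANKRD1, F3, AXL, CRIM1, NT5E, ASAP1, MYOF, FJX1, GADD45A).

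The Hippo pathway is a kinase cascade that limits growth in response to cell contact, shape and stiffness of the surroundings. Its core kinases phosphorylate the coactivators YAP and TAZ, which holds them outside the nucleus; when the cascade is off, both enter the nucleus and switch on target genes through the DNA-binding TEAD factors. YAP and TAZ activity is known for its part in the growth and invasiveness of basal-type breast cancer, whereas GATA3 is a zinc-finger factor of the luminal breast lineage.

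The 6 groups held 2 libraries each: GATA3 with the p.A442M change and a FLAG tag (A442M-FLAG), the p.G444E change and the tag (G444E-FLAG), wildtype with the tag (WT-FLAG), and the untagged A442M, G444E and wildtype (WT) proteins. The tag sat at the C terminus, and the design text says that it raises the stability of GATA3 whatever the genotype. Cells of all groups were untreated and were collected on day 3, and 1 antibody to GATA3 served tagged and untagged libraries. The sources used here give neither the promoter behind each GATA3 copy nor whether a line was 1 clone. Samples with the empty vector, 2 in number, were not analysed, and no list of background binding was set against these calls. Peak lists carry no expression values, so the identity of the cells was not checked against marker genes. The labels do not say whether replicates were separate cultures, so a p-value here covers only the spread between the samples at hand, which can be technical.

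Lists held between 25248 and 51694 peaks, with no read counts, so the depth behind them is unknown. Untagged A442M and WT lists stood apart from the other 8: they held 57 to 110 peaks on unplaced contigs, against 14 to 24 in the other libraries. Their highest scores were 1235 to 1709, against 751 to 1183 in the other libraries. Calls that separate these 4 libraries from the rest therefore cannot be told apart from whatever those differences mark. In untagged A442M and WT libraries 0.723% ± 0.0263 and 0.727% ± 0.0328 of a library's regions lay at the Hippo genes, and in the other 4 groups the means lay between 0.838% and 0.914% (SD, n = 2 each).

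ANKRD1 and CCN2 are a pair of widely used readouts of YAP activity. A region over the ANKRD1 start was called in 12 libraries, and the CCN2 region just upstream of the start in 8. The 250 bases before the start are shown for these genes and, for contrast, for VGLL3 and YAP1, whose start regions were called in few libraries. Sequences are from RefSeq on GRCh38.p14, read 5′ to 3′ on the strand of the gene, for chr10:90921088-90921337 (ANKRD1, minus strand), chr6:131951373-131951622 (CCN2, minus strand), chr3:86991150-86991399 (VGLL3, minus strand) and chr11:102110197-102110446 (YAP1, plus strand). Capitals mark matches, on either strand, to 3 motifs: the GATA motif (AGATAA with its variant AGATAG, as well as TGATAA with its variant TGATAG), the TEAD motif (GGAATG) and the AP-1 motif (TGANTCA).
ANKRD1: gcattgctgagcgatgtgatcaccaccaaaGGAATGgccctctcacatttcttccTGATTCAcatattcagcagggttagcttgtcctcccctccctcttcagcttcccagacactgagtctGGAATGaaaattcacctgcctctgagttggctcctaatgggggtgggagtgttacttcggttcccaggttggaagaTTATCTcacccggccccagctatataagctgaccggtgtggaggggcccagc
CCN2: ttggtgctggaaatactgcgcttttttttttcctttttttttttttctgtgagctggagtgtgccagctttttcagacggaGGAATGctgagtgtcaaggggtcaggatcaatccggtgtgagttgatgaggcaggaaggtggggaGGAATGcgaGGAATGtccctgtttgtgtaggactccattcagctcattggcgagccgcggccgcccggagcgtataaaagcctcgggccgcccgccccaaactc
VGLL3: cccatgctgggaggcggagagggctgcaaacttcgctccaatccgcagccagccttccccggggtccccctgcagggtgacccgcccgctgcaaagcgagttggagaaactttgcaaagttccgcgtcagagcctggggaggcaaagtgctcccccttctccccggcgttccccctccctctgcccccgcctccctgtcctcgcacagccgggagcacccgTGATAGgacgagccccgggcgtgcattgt
YAP1: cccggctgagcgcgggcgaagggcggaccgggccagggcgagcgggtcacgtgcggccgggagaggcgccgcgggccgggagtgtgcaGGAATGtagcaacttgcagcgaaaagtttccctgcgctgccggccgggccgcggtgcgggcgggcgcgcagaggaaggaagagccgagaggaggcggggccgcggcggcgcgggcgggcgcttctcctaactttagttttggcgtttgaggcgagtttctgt

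ANKRD1, an ankyrin-repeat protein of muscle and stressed cells, had a region over its start in all 12 libraries (chr10:90920918-90922065), which covered all 250 bases. Its percentile, the rank of the region's highest score among the peaks of the same list, was 95.5 and 87.1 in A442M-FLAG, 88.0 and 78.9 in G444E-FLAG and 93.6 and 87.6 in WT-FLAG libraries. In untagged libraries it was 93.7 and 89.8 in A442M, 91.9 and 78.6 in G444E and 85.6 and 77.0 in WT. The region stood at 77.0 or above in every list. A percentile depends on list length too, since added weak peaks raise the percentile of a region at an unchanged rank. Lists ran from 25248 to 51694 peaks, so here and below percentiles of different libraries are not on 1 scale. The printed bases hold 2 TEAD matches, 1 AP-1 match and 1 GATA match.

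CCN2, a secreted matricellular growth regulator also known as CTGF, had a region 97 bp upstream of its start (chr6:131951469-131952000) in both libraries of A442M-FLAG, G444E-FLAG, WT-FLAG and G444E, and in neither library of A442M or WT. It covered 154 of the 250 bases printed, those farther from the start. The bases printed hold 3 TEAD matches, of which the match nearest the start lies outside the region, and no GATA match. Its percentile was 39.6 and 18 in A442M-FLAG, 62.1 and 49.1 in G444E-FLAG, 40.3 and 39.0 in WT-FLAG and 42.1 and 27.9 in G444E libraries. A second CCN2 region, inside the gene span and 727 bp from the start (chr6:131949490-131950645), showed another order. Every library called 1 or both of these regions, so none lacked a call near the CCN2 start. The second region was called in 1 library each of A442M-FLAG (percentile 34.8) and WT-FLAG (23.4) and in both G444E-FLAG libraries (10.4 and 8.91). Untagged libraries ranked it at 54.2 and 79.3 in A442M, 7.47 and 44.9 in G444E and 64.4 and 66.4 in WT. The 4 untagged A442M and WT libraries, which lacked the first region, ranked the second one above all the other libraries that called it.

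VGLL3, a cofactor of TEAD, had a start region (chr3:86990538-86991408) in 3 libraries, at percentiles of 13.9 and 17.8 in WT-FLAG and 26.8 in 1 A442M library. Its printed bases hold 1 GATA match. The start region of YAP1 (chr11:102109995-102110394) was called in 1 WT-FLAG library at 8.99 and in 1 WT library at 1.48, and the bases hold 1 TEAD match. WWC1, a scaffold also called KIBRA, had a region 701 bp from its start in all 12 libraries (chr5:168292346-168293353), at percentiles of 12.9 to 63.5.

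Of the 28 Hippo genes with a start in the RefSeq table, 11 (39.3%) had a region within 1 kb of it, beside 3670 of 15843 (23.2%) protein-coding genes. ANKRD1 and WWC1 were the 2 with a single such region called in all 12 libraries. At CCN2 the calls were split between the regions given above. For NT5E, which makes adenosine outside the cell, the start region (chr6:85450041-85451029) was called in 10 libraries at percentiles of 6.39 to 46.1. The remaining starts, those of AMOTL1, FJX1, NF2, PTPN14 and TEAD3, had regions in 1 to 6 libraries. The AMOTL1 one (chr11:94767869-94768347) was called in all 6 replicate 1 libraries and in no replicate 2 library. Over all 28 promoters, 8 (28.6%) held a GATA match, 5 (17.9%) a TEAD match and 3 (10.7%) an AP-1 match, beside 17.7%, 10.1% and 5.04% of 15843 promoters of the same length; no match overlapped one of another motif. A match is a run of letters and not a shown binding site.

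All 12 libraries called 105 of the 590 regions (17.8%), beside 13.8% of all regions and 13.7% of those within 50 kb of a protein-coding gene. When a library's peaks had to cover at least 50% of a region to call it, the share was 3.90%, beside 3.54% of all regions. At the other end, 114 (19.3%) were called in 1 library, beside 23.5% of all regions. A region lay at 33 of the 35 genes; MOB1A, an adaptor of the LATS kinases, and AMOT, an angiomotin, had none. A region called in all 12 libraries lay at 26 of the 35 (74.3%), beside 40.6% of 20037 protein-coding genes. The genes were not matched for length of window. The median was 7.97 regions per 100 kb of window for the Hippo genes and 3.06 for all protein-coding genes. No region was shared between the windows of 2 of these genes.

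Shared regions were wider and ranked higher than the others, at Hippo genes as elsewhere. Both differences are partly built in. A region spans all peaks merged into it, so more libraries can only widen it. A shared region also had to pass the calling threshold in every list. Those called in all 12 libraries had a median width of 1016 bp, against 435 bp for the other Hippo regions, and 902 and 405 bp over all regions. Their median percentile was 78.5, against 37.3 for the rest. Inside gene spans lay 359 of the 590 regions (60.8%), with 87 upstream and 82 downstream; for the other 62, outside spans of genes with no start in the table, a side was not assigned. The gene table gives spans without exons, so no region was placed in an exon or intron.

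**Figure D1:**
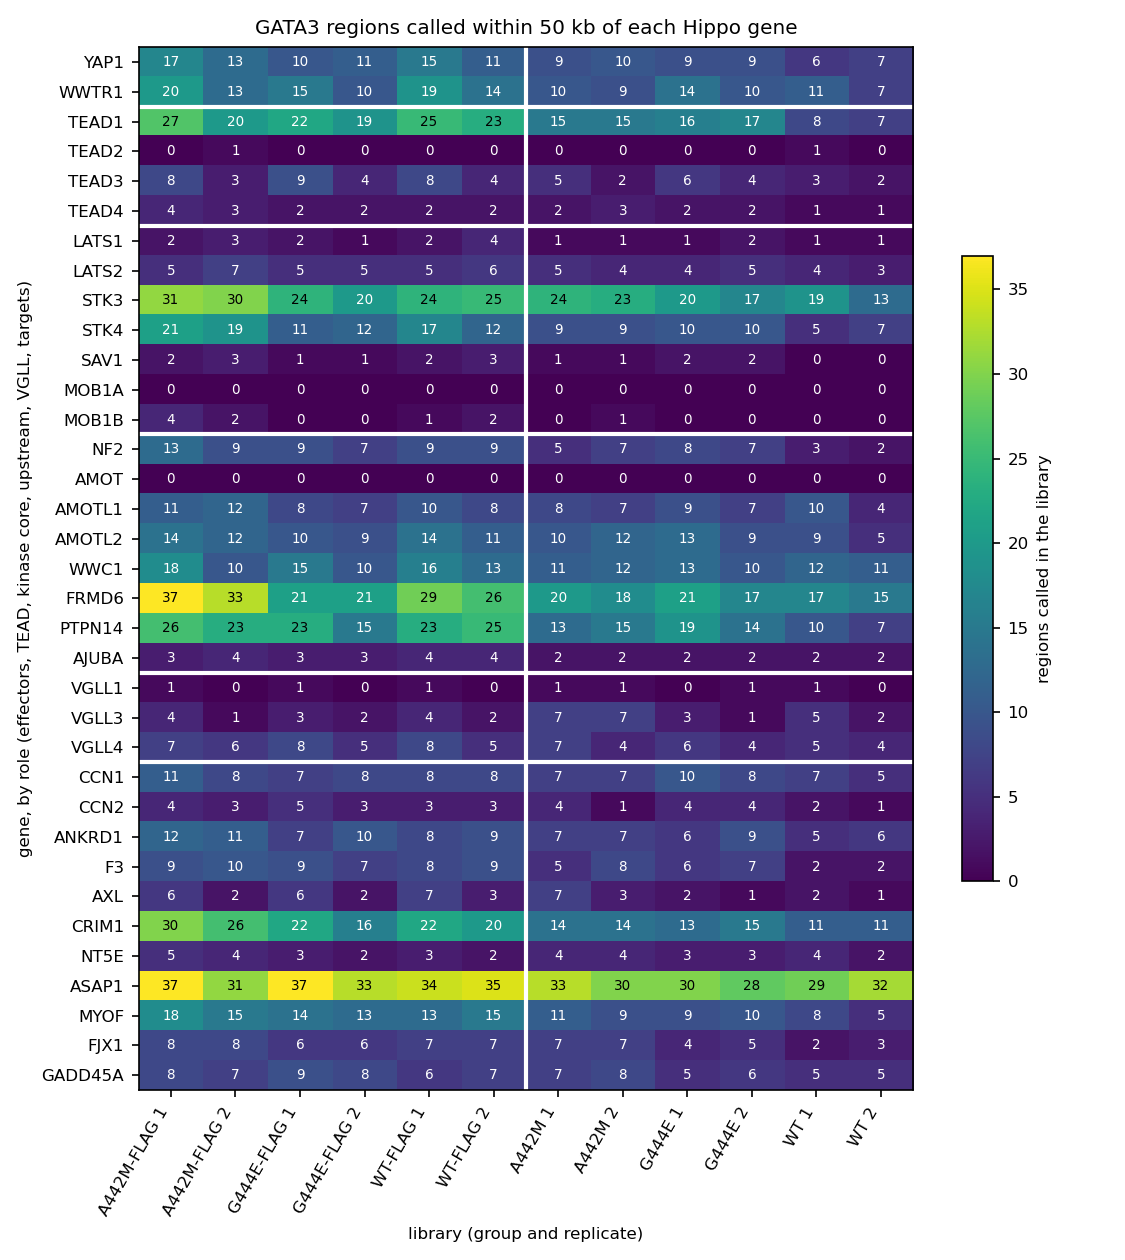
Number of GATA3 regions called within 50 kb of each Hippo gene (rows, by role) in each of the 12 libraries (columns, group and replicate; colour and printed numbers show regions called). ASAP1, FRMD6 and STK3 have the most calls, MOB1A and AMOT have 0 in all libraries, and in most rows the 6 untagged columns on the right are darker, which means fewer calls.

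YAP1 and WWTR1 encode the coactivators YAP and TAZ, on which the cascade acts. Every library called 5 of the 21 regions at YAP1 and 4 of the 32 at WWTR1. The YAP1 region with the highest ranks lay 33717 bp beyond the gene (chr11:102267141-102269026). Its percentile was 95.3 and 86.7 in A442M-FLAG, 97.4 and 94.2 in G444E-FLAG, 98.2 and 93.8 in WT-FLAG, 96.5 and 94.7 in A442M, 97.0 and 91.3 in G444E and 97.1 and 93.5 in WT libraries. Within each group replicate 1 ranked it above replicate 2, and the groups overlapped. The leading WWTR1 region lay inside the gene (chr3:149654111-149654592), at percentiles of 85.1 to 93.7 in 10 libraries and 75.1 and 78.3 in WT.

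Among the TEAD factors, which bring YAP and TAZ to DNA, TEAD1 carried most calls. It had 37 regions with 6 in every library, while TEAD3 had 11 with 1, TEAD4 had 4 with 1 and TEAD2 had 2 with 0. The leading TEAD1 region, inside the gene (chr11:12876411-12877426), ranked at 99.1 and 98.7 in A442M-FLAG, 96.5 and 92.7 in G444E-FLAG and 98.2 and 96.3 in WT-FLAG libraries. Untagged libraries ranked it lower within their own lists, at 89.7 and 89.4 in A442M, 86.9 and 89.7 in G444E and 77.2 and 74.8 in WT. The leading TEAD3 region, 37829 bp beyond the gene (chr6:35435062-35435768), was near the top of both A442M-FLAG lists, at 99.2 and 98.9, and was called in neither A442M nor WT library. It stood at 54.4 and 55.3 in G444E-FLAG, 80.3 and 83.0 in WT-FLAG and 44.8 and 47.1 in G444E libraries. The leading TEAD4 region (chr12:2937323-2937996) ranked at 94.2 and 94.8 in A442M-FLAG libraries and at 46.5 to 84.4 in the other 8 libraries that called it, with WT lacking it.

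In the kinase core, STK3 and STK4 (MST2 and MST1) activate LATS1 and LATS2, the kinases that phosphorylate YAP, with SAV1 and the MOB1 proteins as adaptors. STK3, whose window on chromosome 8 is the longest here, had 49 regions with 12 in all libraries, and its leading region lay at 96.4 or above in every list. STK4 had 28 regions with 4 in all libraries. Its leading region, inside the gene (chr20:45010292-45011359), ranked at 96.3 and 89.8 in A442M-FLAG, 94.4 and 84.9 in G444E-FLAG, 97.2 and 87.0 in WT-FLAG, 97.6 and 95.7 in A442M, 96.2 and 91.8 in G444E and 97.5 and 97.0 in WT libraries. Unlike at TEAD1, both WT percentiles lay within or above the range of the tagged ones.

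LATS2 had 7 regions with 2 in all libraries, led by one 7950 bp upstream of the span (chr13:21069536-21070108), at 98.6 and 94.6 in A442M-FLAG libraries, between 82.9 and 94.9 in the next 4 groups and at 80.3 and 72.5 in WT libraries. LATS1 had 6 regions and none in all libraries. Its leading region, 301 bp outside the 5′ end of the span (chr6:149718402-149718733), was called in both libraries of WT-FLAG, A442M, G444E and WT and in 1 of G444E-FLAG, at 58.9 to 77.2, and in neither A442M-FLAG library. SAV1 had 4 regions, MOB1B 5 and MOB1A 0, with none in all libraries, and no SAV1 or MOB1B lead ranked above 37.6 in any list.

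Upstream regulators and scaffolds carried 161 regions, of which 31 were in every list. FRMD6, a FERM-domain protein, had 48 with 10 in all 12, WWC1 had 23 with 6, and PTPN14, a phosphatase that binds YAP, had 34 with 5. The leading FRMD6 region (chr14:51603611-51604980), inside the gene, lay between 96.5 and 99.3 in all 12 lists, the WT lists being among the highest at 99.3 and 99.2. The leading WWC1 region, 20787 bp upstream (chr5:168270469-168270858), ranked lowest in A442M-FLAG, the group in which the TEAD3 one ranked highest. The WWC1 region stood at 81.0 in 1 A442M-FLAG library and was uncalled in the other, but it reached 96.5 and 95.9 in A442M and 98.4 and 97.3 in WT libraries. The remaining groups were as high, at 94.8 and 91.1 in G444E-FLAG, 96.1 and 93.3 in WT-FLAG and 96.5 and 93.0 in G444E libraries.

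The leading PTPN14 region (chr1:214377663-214378912), inside the gene, was called in every library except both WT ones. It ranked at 99.2 in both A442M-FLAG libraries, 96.9 and 98.4 in G444E-FLAG, 98.1 and 99.2 in WT-FLAG, 88.7 and 87.6 in A442M and 95.1 and 96.4 in G444E libraries. NF2, which encodes the tumour suppressor merlin, had 16 regions with 1 in all libraries, and its leading region (chr22:29654066-29654933) was likewise missing from both WT lists. Elsewhere NF2's lead ranked at 97.9 and 98.0 in A442M-FLAG, 87.8 and 92.8 in G444E-FLAG, 92.1 and 94.1 in WT-FLAG, 72.2 and 76.4 in A442M and 76.4 and 67.5 in G444E libraries. The angiomotins AMOTL1 and AMOTL2, which tether YAP at junctions, had 17 regions each, with 4 and 3 in all libraries. The AMOTL1 lead, 27314 bp upstream (chr11:94677056-94679146), lay at 97.3 or above in all lists. AJUBA, a LIM protein that binds the LATS kinases, had 6 regions with 2 in all libraries.

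VGLL cofactors compete with or stand in for YAP at TEAD factors, and their windows held few regions: 10 for VGLL4, 9 for VGLL3 and 2 for VGLL1. VGLL4, which opposes YAP, had 4 in all libraries. Its lead (chr3:11768565-11769543), 46750 bp upstream, lay between 93.4 and 97.8 in 10 libraries and at 85.6 and 76.8 in WT. The VGLL3 lead, inside the gene (chr3:86960483-86960873), was called in replicate 1 alone in the tagged groups and in G444E, at 72.6 to 80.6. Both libraries of A442M (90.1 and 81.0) and of WT (85.3 and 54.1) called it.

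The 11 YAP targets held 202 regions, of which 34 were in every list, and each had at least 7. ASAP1, an Arf GTPase-activating protein on chromosome 8, had 51 regions with 11 in all libraries, the most regions of any of the 35 genes, and its leading region lay at 99.9 or above in every list. CRIM1, a transmembrane binder of BMP ligands, had 36 with 6, and MYOF, the membrane-repair protein myoferlin, had 22 with 4. The leading MYOF region, 35842 bp upstream (chr10:93518176-93519021), lay at 98.4 or above in 10 libraries and at 91.2 and 84.8 in WT. The CRIM1 lead, inside the gene (chr2:36388710-36389811), varied little, between 85.4 and 93.6 in all 12 lists. ANKRD1 had 14 regions with 4 in all libraries; its lead lay 9993 bp upstream (chr10:90931080-90931620), at 88.7 to 99.2.

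CCN1, the matricellular relative of CCN2, had 15 regions with 3 in all libraries, and its lead (chr1:85540314-85541356) ranked at 80.0 to 92.7 outside WT and at 60.8 and 60.6 in WT libraries. The WT lists held 28890 and 25248 peaks, and the list that gave the 80.0, A442M-FLAG replicate 1, held 51694. F3, which encodes tissue factor, had 16 regions with 1 in all libraries, and FJX1, a homolog of a fly kinase of the Fat pathway, had 13 with 1. The leading region of each (chr1:94582274-94582866 for F3, chr11:35571638-35572247 for FJX1) was called in all libraries but the WT ones. GADD45A, a stress-response gene, had 10 regions with 3 in all libraries, the receptor kinase gene AXL had 9 with 1, NT5E had 9 and CCN2 had 7, both with 0. Outside the 35 genes, 12 of 16 other Hippo regulators and 7 of 8 other YAP targets had a region in all libraries, led by WWC3 with 7 and TGFB2 with 8.

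**Figure D2:**
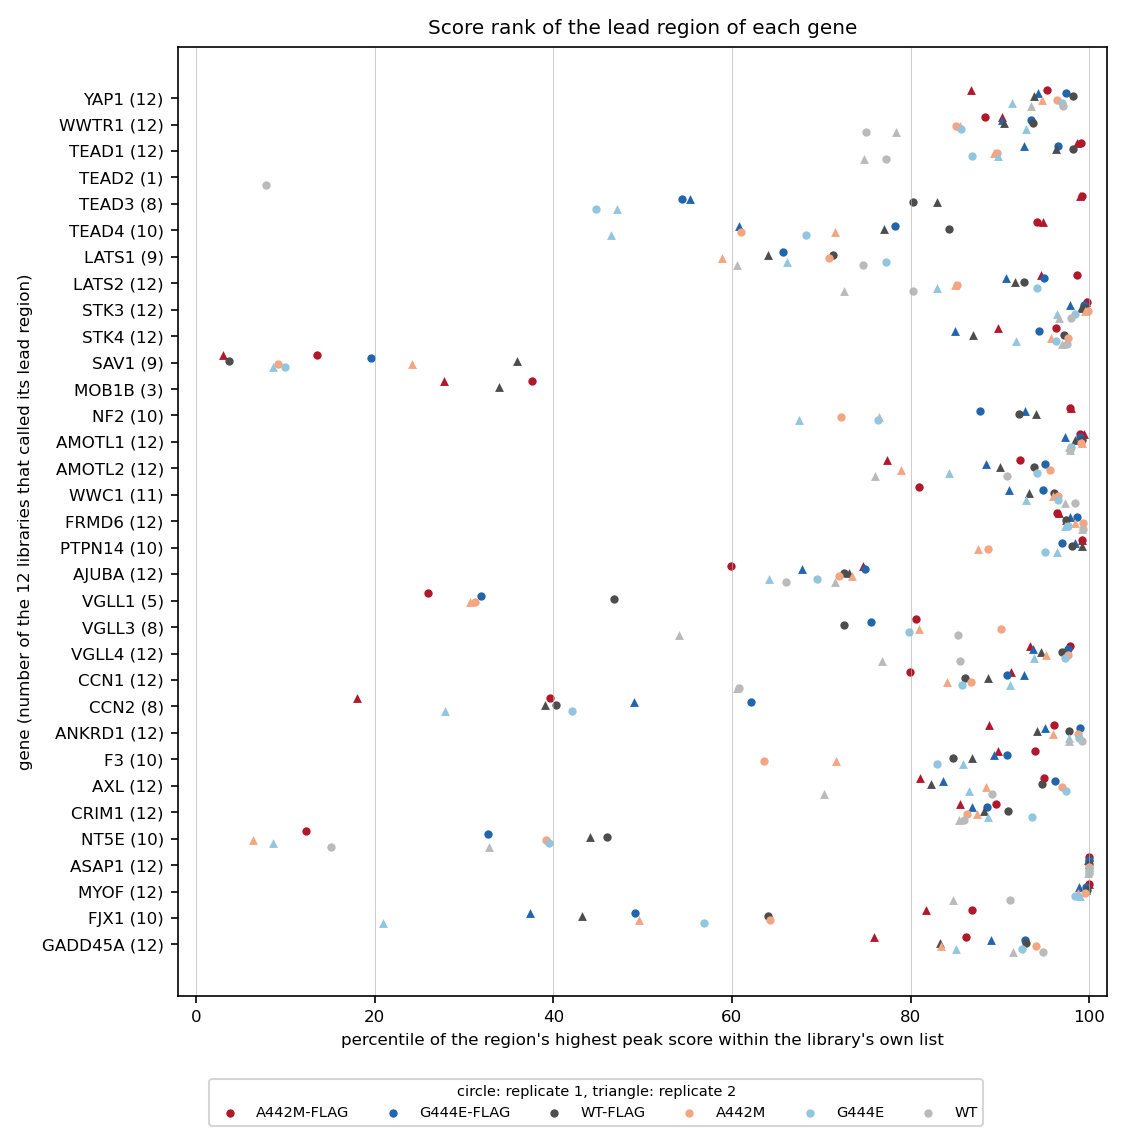
Percentile of the leading region of each of the 33 Hippo genes with a region (vertical axis, with the number of libraries that called it) within each library's own list (horizontal axis); colours are groups, circles replicate 1 and triangles replicate 2, and a library without the call has no point. ASAP1 lies at 99.9 or above in every list, while the TEAD3 lead runs from 44.8 to 99.2 in the libraries that called it.

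**Figure D3:**
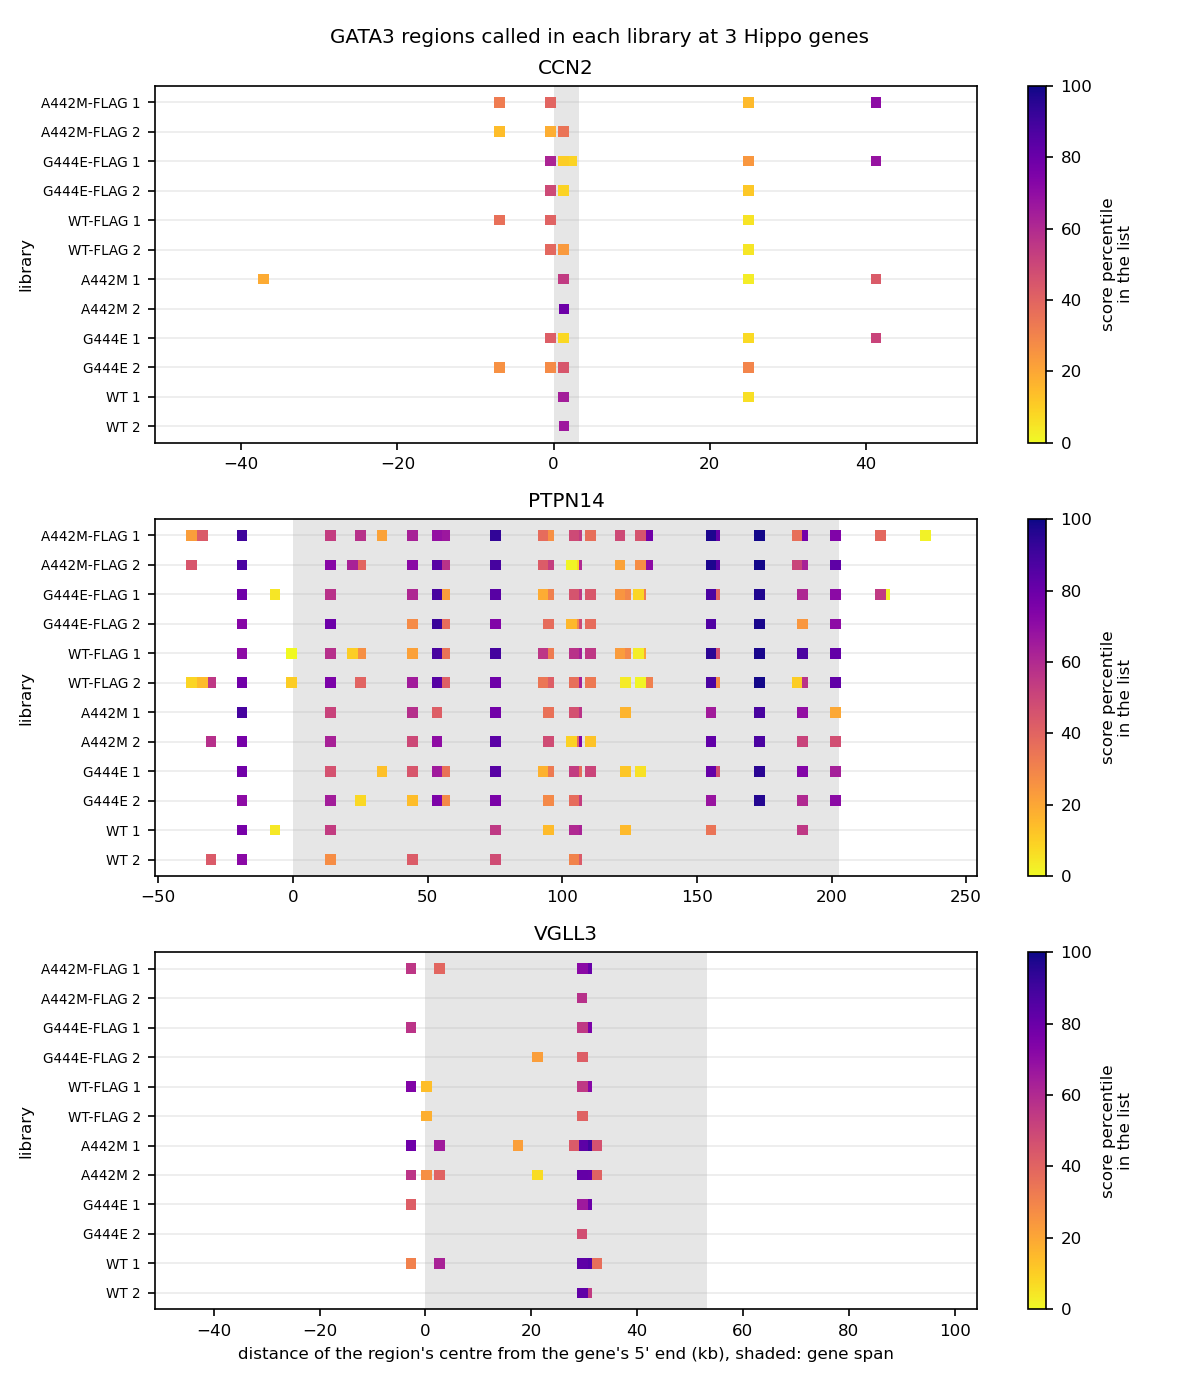
Position of the GATA3 regions called in each library (rows) at CCN2, PTPN14 and VGLL3, as distance from the 5′ end of the gene in kb, coloured by percentile within the list; shading marks the gene span. The CCN2 region just upstream of the start is absent from the 4 A442M and WT rows, which hold the second region, inside the gene. The leading PTPN14 region, deep inside the gene, is absent from the 2 WT rows.

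In the lists as deposited, more regions were called at most Hippo genes with the FLAG tag. The tagged libraries called 423 and 352 (A442M-FLAG), 327 and 272 (G444E-FLAG) and 357 and 327 (WT-FLAG) of the 590 regions, against 271 and 261 (A442M), 270 and 246 (G444E) and 210 and 173 (WT) without the tag. All tagged libraries lay above all untagged ones. The mean count was higher in FLAG libraries for 29 genes and lower for 3, and 76.7% of all 17721 genes tested were higher. With every list cut to the same length it was higher for 23 and lower for 8, beside 49.4% of all genes higher. At an unadjusted p of at most 0.05, 16 of the 33 Hippo genes were higher in an exact permutation test of regions called per library, 6 against 6, two-sided, and 0 were lower. The same held for 20.7% and 0.655% of all genes tested. The Hippo genes and all genes were not matched for regions per gene, whose median per 100 kb was 7.97 and 3.06. A gene with few regions has less room to differ, so these gene shares and those below are not on equal terms. After Benjamini-Hochberg adjustment over all genes 0 passed, with a lowest adjusted p of 0.107. Only 360 genes reached the smallest p that 924 arrangements can give, where 768 would have been needed for any to pass.

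TEAD1, STK4, AJUBA, CRIM1 and MYOF were the 5 Hippo genes whose FLAG and untagged counts did not overlap, with FLAG on top, beside 2.01% of all genes tested. The untagged counts were wholly on top for 0 Hippo genes, beside 0.0226% of all genes. TEAD1 had a lowest count of 19, a median of 22.5 and a highest of 27 in FLAG libraries, against 7, 15 and 17 in untagged ones. STK4 had 11, 14.5 and 21 in FLAG libraries and 5, 9 and 10 in untagged ones. Each FLAG library therefore called more regions at these genes than any untagged library. CRIM1 gave 16, 22 and 30 in FLAG libraries against 11, 13.5 and 15 in untagged ones. MYOF gave 13, 14.5 and 18 against 5, 9 and 11. AJUBA gave 3 or 4 in every FLAG library and 2 in every untagged one. For each of the 5 the exact permutation p was 0.00216, the smallest possible, and the adjusted p was 0.107.

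At the effectors, YAP1 averaged 12.8 ± 2.71 regions in FLAG and 8.33 ± 1.51 in untagged libraries (SD, n = 6 each; exact permutation test, p = 0.00433, adjusted p = 0.129). WWTR1 averaged 15.2 ± 3.76 in FLAG and 10.2 ± 2.32 in untagged libraries (exact permutation test, p = 0.0325, adjusted p = 0.196). FRMD6 had 27.8 ± 6.46 in FLAG and 18 ± 2.19 in untagged libraries and PTPN14 had 22.5 ± 3.89 and 13 ± 4.15. None of these passed the adjustment. VGLL3 ran the other way, with 2.67 ± 1.21 in FLAG and 4.17 ± 2.56 in untagged libraries (exact permutation test, p = 0.279), and VGLL1 and NT5E had slightly lower FLAG means. By role, 2 of 2 effectors, 1 of 4 TEAD factors, 3 of 6 kinase-core genes, 4 of 7 upstream genes, 0 of 3 VGLL genes and 6 of 11 targets were at an unadjusted p of at most 0.05. Among genes outside the 35, it was 8 of 15 other Hippo regulators and 2 of 8 other YAP targets.

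The difference depended on the length of the lists. When every list was cut to its 25248 highest-scoring peaks, the libraries called 215 and 216 (A442M-FLAG), 210 and 229 (G444E-FLAG), 219 and 215 (WT-FLAG), 184 and 194 (A442M), 223 and 231 (G444E) and 190 and 173 (WT) of these regions. Untagged G444E then lay at the level of the tagged groups. LATS1, WWC1, VGLL4, CCN2, AXL and ASAP1 turned to a lower FLAG mean, ASAP1 with 24.8 in FLAG and 26.8 in untagged libraries (exact permutation test, p = 0.286). At an unadjusted p of at most 0.05 there were then 2 of 32 genes, FRMD6 (exact permutation test, p = 0.00866) and STK4 (p = 0.013), beside 6.09% of all genes tested. Without G444E-FLAG replicate 2, in contrast, TEAD1, STK4, AJUBA, CRIM1 and MYOF passed the adjustment (exact permutation test, adjusted p = 0.0478), as did 4.51% of all genes. The library left out had the shortest tagged list, with 30026 peaks against 36955 to 51694 in the other tagged libraries. Leaving it out therefore also lengthens the mean FLAG list.

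**Figure D4:**
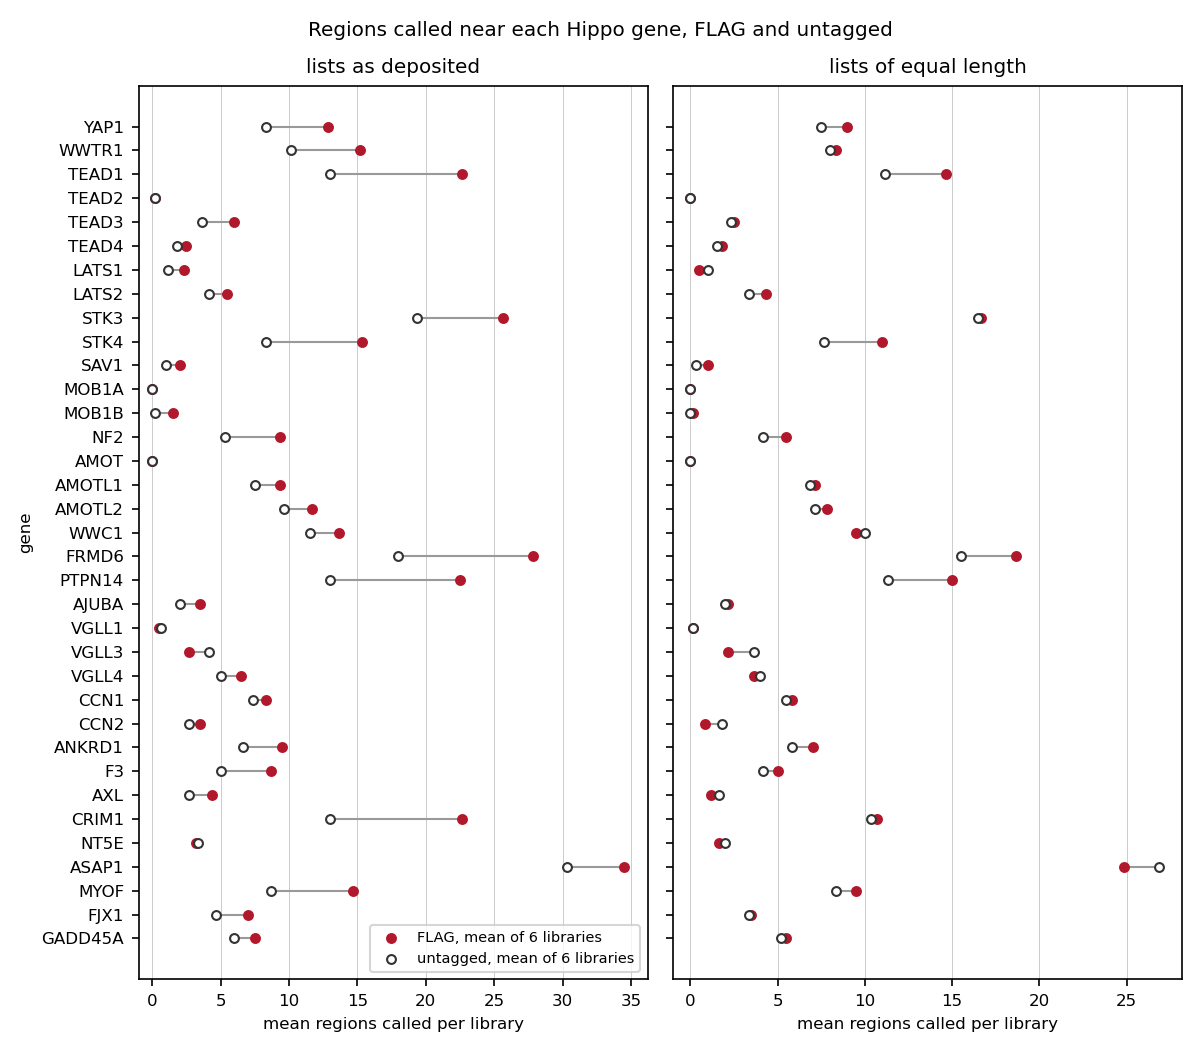
Mean number of regions called per library at each Hippo gene in 6 FLAG libraries (filled red) and 6 untagged libraries (open), for the lists as deposited (left) and cut to 25248 peaks each (right). FLAG means lie higher for 29 genes on the left, and on the right the points nearly coincide for most genes.

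Single regions were tested as well. Of 77 regions whose calls could reach p = 0.05, 11 (14.3%) were called more often in FLAG libraries at an unadjusted p of at most 0.05 in Fisher's exact test and 0 less often, beside 11.3% and 1.63% of 11777 regions. None passed the adjustment (Fisher's exact test, lowest adjusted p = 0.104), and the Hippo share was near that of all regions. Regions called in all 6 FLAG libraries and in no untagged one numbered 3 (0.508%, beside 0.291% of all regions): inside TEAD1 (chr11:12791031-12791792), inside CRIM1 (chr2:36450613-36451678) and beyond the 3′ end of LATS1 (chr6:149647215-149647962). The TEAD1 one ranked at 83.7 and 78.1 in A442M-FLAG, 22.4 and 9.38 in G444E-FLAG and 31.4 and 54.8 in WT-FLAG libraries. In all 3 regions both A442M-FLAG percentiles were above both G444E-FLAG ones. The A442M-FLAG lists were also longer, with 51694 and 42993 peaks against 40389 and 30026. This order was not counted over all regions of the same pattern, so it does not set the Hippo regions apart.

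In a test that pooled tagged and untagged libraries, no Hippo gene separated the mutant libraries from the WT ones. The difference between tagged and untagged libraries adds to the spread on both sides of this test. Over 8 mutant and 4 WT libraries, 0 of 33 genes reached an unadjusted p of at most 0.05 in the exact permutation test, beside 0.457% of all genes higher and 0.147% lower, and 0 passed the adjustment. Only 1 gene of all reached the smallest possible p, where 716 would have been needed for any to pass. The mean count was higher in mutants for 27 Hippo genes and lower for 6, beside 63.9% of all genes higher. TEAD4 had the lowest p, with a mean of 2.5 regions in mutant and 1.5 in WT libraries (exact permutation test, p = 0.0566). Of 180 testable regions, 1 was called more often in mutants at an unadjusted p of at most 0.05 by Fisher's exact test and 0 less often, beside 0.206% and 0.105% of 26654 regions; none passed the adjustment. That region lay near GADD45A (chr1:67700517-67701388) and was called in 8 of 8 mutant libraries and 1 of 4 WT libraries (Fisher's exact test, p = 0.0182, adjusted p = 1).

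With 2 libraries on each side, the smallest p of an exact permutation test is 0.333, and no test was run between single groups. Their one-sided regions, those that 1 group called in each library and the other never, are described beside the share over all regions. Between untagged A442M and WT, 36 of 347 Hippo regions (10.4%) were on the A442M side alone and 0 on the WT side alone, beside 11% and 1.08% of all regions. Cut to equal lists the shares were 6.93% and 2.19%, beside 6.53% and 3.82%. The highest-ranking of the 36 lay at PTPN14, NF2 and F3, the leading regions given above. Between untagged G444E and WT, 41 of 354 (11.6%) were on the G444E side and 8 (2.26%) on the WT side, beside 8.72% and 6.27%. With equal lists it was 10.5% and 2.87%, beside 8.02% and 7.34%. PTPN14 and F3 led on the G444E side too, with a MYOF region (chr10:93406788-93407361), and the top 3 on the WT side were all at ASAP1.

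Between the tagged groups, A442M-FLAG alone had 40 of 531 (7.53%) and WT-FLAG alone 11 (2.07%), beside 7.15% and 1.89%; with equal lists the shares were 4.44% and 3.81%, beside 5.59% and 4.12%. The A442M-FLAG side was led by regions inside NF2 (chr22:29662582-29662850), FRMD6 (chr14:51646022-51646571) and NT5E (chr6:85473819-85474668), each called in both A442M-FLAG libraries and nowhere else. The WT-FLAG side was led by the region at the 5′ end of LATS1. G444E-FLAG alone had 3 of 463 (0.648%) and WT-FLAG alone 17 (3.67%), beside 0.659% and 3.11%. With equal lists the order of the shares turned, to 1.67% and 1% (5 and 3 of 300 regions), beside 1.3% and 1.74%. An STK4 region (chr20:45019463-45020166), called in A442M-FLAG and WT-FLAG libraries alone, headed the WT-FLAG side.

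Adding the tag to 1 genotype gave the largest one-sided shares for WT and A442M. WT-FLAG alone had 84 regions (19.0% of those called in these libraries) and WT alone 3 (0.679%), beside 16.8% and 4.34%. A442M-FLAG alone had 87 of 507 (17.2%) and A442M alone 11 (2.17%), beside 12.5% and 4.71%. With equal lists WT-FLAG had 14.4% and WT 5.77%, beside 11.5% and 9.35%, and A442M-FLAG had 9.77% and A442M 5.86%, beside 10.4% and 9.25%. For G444E both shares were small. G444E-FLAG alone had 14 of 404 (3.47%) and G444E alone 1 (0.248%), beside 3.57% and 0.7%. With equal lists the order turned here too, to 1.63% and 1.96% (5 and 6 of 306 regions), beside 1.81% and 1.63%. The untagged A442M and WT lists are those with many peaks on unplaced contigs, so tag and that difference cannot be told apart in these pairs. The pairs share libraries, and their counts are not independent.

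**Figure D5:**
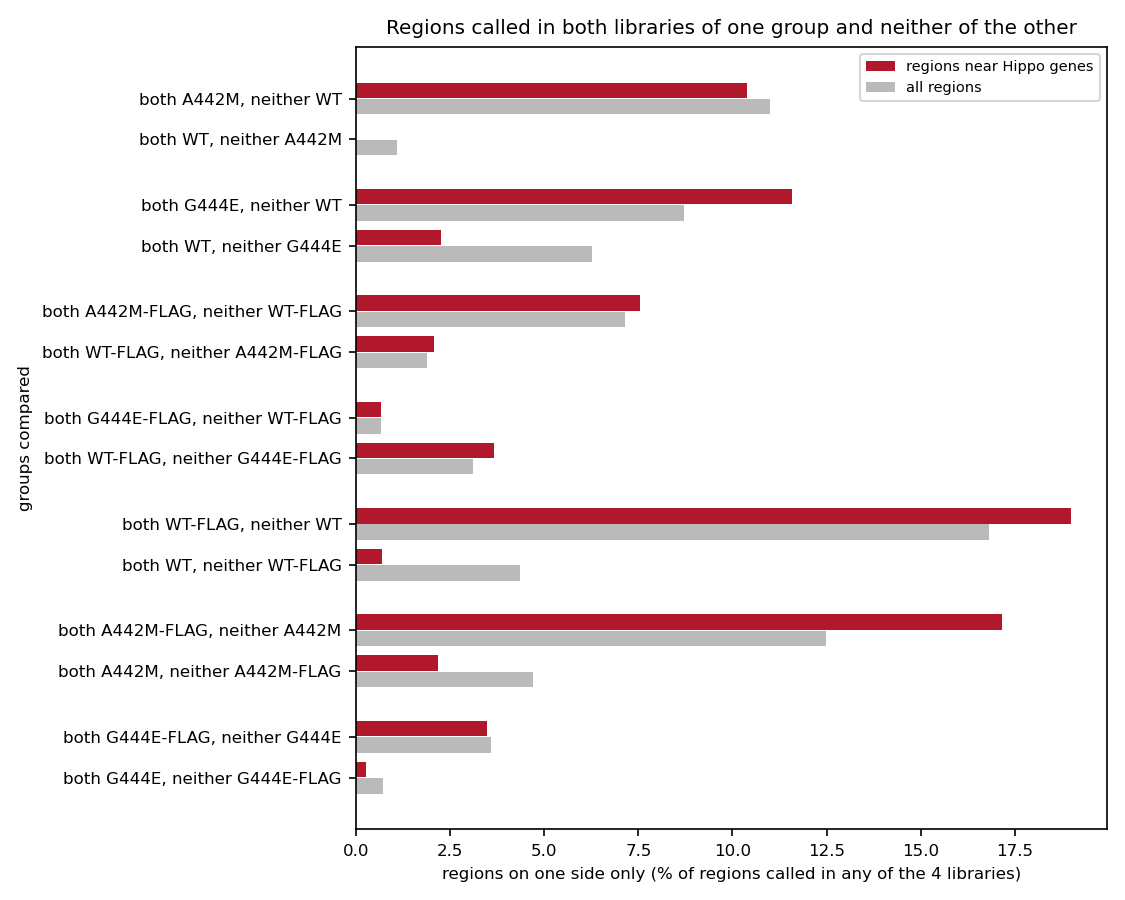
Share of regions called in both libraries of the first group and neither of the second (horizontal bars, % of the regions called in any of the 4 libraries), for regions near Hippo genes (red) and all regions (grey). The WT-FLAG over WT bar is the longest at 19.0%, and the G444E-FLAG pairs stay below 4% in both colours.

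Across all 12 libraries, 21 Hippo regions (3.56%, beside 2.61% of all regions) were called everywhere except in both WT libraries, 4 of them at TEAD1, 3 at PTPN14 and 2 each at F3, YAP1, NF2 and STK3. Called in both A442M-FLAG libraries and no other were 29 (4.92%, beside 4.00%), 5 of them at STK4. Present in all 8 libraries of the tagged groups and G444E, and in no A442M or WT library, were 5 (0.847%, beside 0.330%): at PTPN14, CRIM1, TEAD3, CCN2 and ASAP1. The reverse, all 4 A442M and WT libraries and no other, was seen for 1 region, at STK3 (0.169%, beside 0.818%). By replicate number, 5 regions (0.847%, beside 0.501%) were in all replicate 1 and no replicate 2 libraries, at CCN1, AMOTL1, STK4, VGLL4 and WWTR1, and 1 (0.169%, beside 0.108%) was the other way, at FJX1. Replicate 1 had the longer list in every group.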

How the data were processed

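GATA3 ChIP-seq peaks of 12 libraries, 6 groups of 2, were analysed. The submitters' processing notes name MACS2 2.1.4, FastQC and hg38; for the aligner, the control and the filters, the sources used here give nothing. Peaks were called per sample. The score that the authors deposited for each peak has no named scale and was at least 5.0 in every list; it served only to rank peaks within a list. Peaks were merged into regions with Python 3.11.15, numpy 2.4.6, pandas 2.3.3 and scipy 1.17.1. A region counted as called in each library with a peak in it, and a percentile is the rank of its highest score in that list. Genes, spans and promoters came from RefSeq (GRCh38.p14); coordinates are 1-based. Starts were found for 28 of 35 genes. Calls per region were tested with Fisher's exact test, and regions called per gene with an exact permutation test over all genes, both two-sided with Benjamini-Hochberg adjustment and tested on simulated data. The simulated libraries differed in calling rate only by the changes put in. They do not show how the tests behave with lists of unequal length. Genes and lists were chosen with earlier results of these data known. Named were, per role, the 3 genes with the most regions in all 12 libraries, each gene's lead region (highest median percentile, uncalled as 0), the 3 top one-sided regions of each side of a pair by the lower percentile of both libraries (chromosome 8 positions are not printed), and start regions; regions of other patterns were named after their calls were seen. Replicate numbers are not explained by the labels. The differences between replicates 1 and 2 correlated between groups at r = 0.113 to 0.290 across regions, over 15 pairs of groups. The numbers were therefore taken as a possible pairing and used as a block in an alternative, while the main tests had no block. Alternatives were a score of at least 10, peaks covering at least 50% of a region, equal lists, a 10 kb window, the replicate block, exchange within genotype or tag state, and leaving out each library.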

Additional observations from a re-analysis of the deposited data

How the results depend on the processing

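With equal lists the order of both one-sided shares turned in 2 pairs. These were G444E-FLAG against WT-FLAG (1.67% and 1%, 5 and 3 regions) and G444E-FLAG against G444E (1.63% and 1.96%, 5 and 6 regions). Both turns rested on few regions. In addition, 6 genes turned to a lower FLAG mean. None of the 6 genes passed the adjustment at that setting, and the one-sided shares had no test. With the replicate block, the pairing of same-numbered libraries, 0 genes and 0 regions passed the adjustment in either comparison, as without it, and 17 Hippo genes were higher with FLAG at an unadjusted p of at most 0.05; the block changed no call. Exchanging labels only within a genotype or a tag state also left 0 calls after adjustment. Within a tag state, 2 of the mutant counts at an unadjusted p of at most 0.05 moved and 2 did not. The share of Hippo regions called in all 12 libraries was 3.90% (3.54% of all regions) when peaks had to cover at least 50% of a region, and 17.9% to 20.7% with 1 library left out. The A442M share absent from WT was 14.1% with a score of at least 10, 16% with the cover rule and 6.93% (6.53% of all regions) with equal lists. The WT-FLAG share absent from WT was 24.3%, 28.0% and 14.4% under the same 3 settings, with 11.5% of all regions at the last. One-sided shares over all regions were not computed for the score and cover rules or with a library left out. A move at those settings may therefore hold for all regions. With equal lists the other shares that moved were 2.19% (WT, not A442M), 4.44% (A442M-FLAG, not WT-FLAG), 3.81% (WT-FLAG, not A442M-FLAG), 1% (WT-FLAG, not G444E-FLAG), 5.77% (WT, not WT-FLAG), 9.77% (A442M-FLAG, not A442M), 5.86% (A442M, not A442M-FLAG), 1.63% (G444E-FLAG, not G444E) and 1.96% (G444E, not G444E-FLAG). The cause was not tested beyond the shorter lists themselves. Leaving out 1 of the 4 libraries widens a one-sided share by construction, since 3 calls decide it: it was 14.5% to 23.6% for A442M not WT, 0.955% to 5.04% for WT not A442M, 15.9% to 25.5% for G444E not WT, 3.11% to 8.96% for WT not G444E, 11.4% to 17.9% for A442M-FLAG not WT-FLAG, 3.73% to 7.68% for WT-FLAG not A442M-FLAG, 2.79% to 7.11% for G444E-FLAG not WT-FLAG, 7.33% to 13.7% for WT-FLAG not G444E-FLAG, 23.5% to 39.2% for WT-FLAG not WT, 1.42% to 4.78% for WT not WT-FLAG, 21.3% to 33.2% for A442M-FLAG not A442M, 2.71% to 6.90% for A442M not A442M-FLAG, 6.96% to 17.5% for G444E-FLAG not G444E and 1.57% to 4.38% for G444E not G444E-FLAG. Genes higher with FLAG after adjustment numbered 0 to 5, with 5 only without G444E-FLAG replicate 2, the shortest tagged list, where 4.51% of all genes passed. At an unadjusted p of at most 0.05 they numbered 13 to 18 with 1 library left out and 2 with equal lists (6.09% of all genes tested). For the block and the left-out libraries no share over all genes is given here, so those counts do not set Hippo genes apart. A 10 kb window moved none of the shares and adjusted counts it was run on. The unknown read depth limits all calls: a region without a call may lie just under the authors' threshold.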
